A study of Danio rerio with 2 samples.

Results

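Hox transcripts were compared between gnl2 mutant and wild-type zebrafish embryos, paralog group by paralog group along the head-to-tail axis. The set holds every gene probe whose name, or whose symbol in the probe description, is a zebrafish Hox gene symbol: a cluster letter from a to d, a paralog number from 1 to 13 and a copy letter. This gave 60 probes of 41 genes among the 21495 gene probes and 17989 names on the array. The rule reads names and no measured value. All 41 genes and 58 of their 60 probes passed the filters on flags and background, against 16299 genes and 19284 probes in all.

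The mutant group was homozygous for the bw41c allele of gnl2, which encodes a nucleolar GTPase needed to build the large ribosomal subunit, and the control group was wild type of the TL strain. Both were whole embryos staged by morphology at 22 hours post-fertilization, with 40 embryos per RNA extract. Mutants were offspring of heterozygous carriers; a sibling relation to the TL embryos is not given in the labels, so strain background and genotype cannot be told apart. Part of the collected embryos went to genotyping. Both genotypes were hybridised together on 2 arrays, with the mutant RNA in Cy5 on array 1 and in Cy3 on array 2. The series design text speaks of biological replicates with a dye swap, while the 2 array titles end in the same number. The labels do not settle whether the arrays share their extracts. If they do, the p-values measure only the spread between these hybridisations. A difference between arrays cannot be told apart from one between dyes or replicates.

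Hox genes encode homeodomain transcription factors that give cells along the body axis their positional identity. They lie in clusters whose gene order matches the order of their expression: low paralog numbers are switched on first and act in the hindbrain, middle numbers in the anterior spinal cord and trunk, and high numbers last, in the posterior trunk, tail bud and fins. Zebrafish descend from an ancestor with a duplicated genome and therefore carry a and b copies of many Hox genes. Retinoic acid induces the anterior genes, Cdx factors the posterior ones, and Pbx and Meis proteins bind DNA together with Hox proteins.

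The gnl2 transcript had a normalised intensity of 2164 and 538 in mutants on arrays 1 and 2, against 4287 and 2602 in wild types. It was lower in mutants on both arrays, by log2 ratios of -0.99 and -2.27. Its unadjusted limma p was 0.0138, and gnl2 itself did not pass after adjustment. Over all 19284 probes, limma with Benjamini-Hochberg adjustment called 0 at an adjusted p under 0.05 (0% called, smallest adjusted p 0.498), and 632 probes (3.28%) had an unadjusted p under 0.05. Signals include an offset of 50 that pulls the ratios of dim probes towards 0, and intensities of different probes were not set against each other as transcript levels. In whole-embryo RNA, fewer cells of a type and less RNA per cell cannot be told apart.

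No Hox gene passed the test for a difference between mutants and wild types. The 41 genes had a median log2 ratio, mutant over wild type, of -0.045 on array 1 and -0.0013 on array 2, against 0.012 and -0.0068 for all 16299 genes. Limma called 0 of the 58 Hox probes (smallest adjusted p 1.00), and 1 of 58 (1.72%) had an unadjusted p under 0.05. By its brightest probe, no gene had an unadjusted p under 0.05, and the adjusted p of each of the 41 was 1.00. None of them reached a 2-fold difference on either array, a share not computed for all genes. By the stricter rule of a 2-fold difference in 1 direction on both arrays, 0.141% of all genes passed and no Hox gene did. Within 0.5 of 0 on both arrays lay 39 of 41 Hox genes (95.1%) and 92.1% of all genes.

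The 95% confidence interval of the mean log2 ratio included 0 for all 41 genes, with a half-width of 0.243 to 0.648 and a median of 0.298. The intervals come from the limma fit that gave the p-values, so this repeats that no gene had an unadjusted p under 0.05. Of all 16299 genes, 520 had one. These intervals are not adjusted for the number of probes, and a smaller difference in a single Hox gene was not detectable with 2 arrays. Larger differences could also miss the adjusted threshold, as gnl2 did at a mean log2 ratio of -1.63. Well above background in both genotypes on both arrays were 59 of 60 Hox probes, and 0 were saturated. The exception was hoxa11a, the dimmest gene of the set, not well above background in wild type on array 1. Mean intensities of the genes ran from 80.0 to 3797, with a median of 326 against 273 for all genes.

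The share of Hox genes with opposite signs on the arrays was that of all genes. Higher in mutants on both arrays were 7 of 41 Hox genes (17.1%, against 21.2% of all genes), and lower on both were 10 (24.4%, against 20.2%). Each gene was counted by its brightest probe, and the 10 include hoxc3a, whose dimmer probe was higher on both. The other 24 (58.5%, and 58.5% of all genes) had opposite signs on the arrays. Across the 41 genes, which share the arrays and dyes, the ratios on array 1 and array 2 had a Pearson r of -0.13 and a Spearman rho of -0.16; over all genes they were -0.16 and -0.20. The SD across Hox genes was 0.246 on array 1 and 0.163 on array 2, against 0.268 and 0.220 for all genes.

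**Figure D1:**
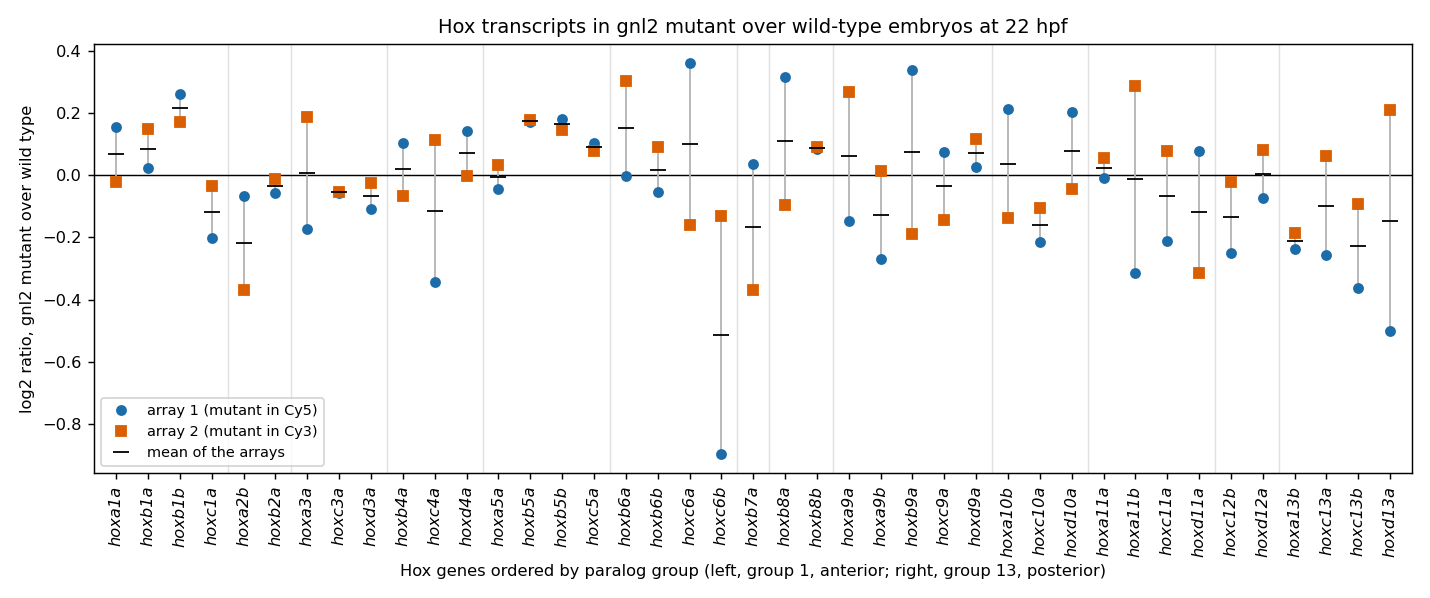
Log2 ratio of mutant over wild type (vertical axis) for the 41 Hox genes in paralog order (horizontal axis), each shown by its brightest probe. Circles are array 1, squares array 2 and short bars their mean; 7 genes lie above 0 on both arrays, 10 below 0 on both, and the widest value is hoxc6b on array 1.

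**Figure D2:**
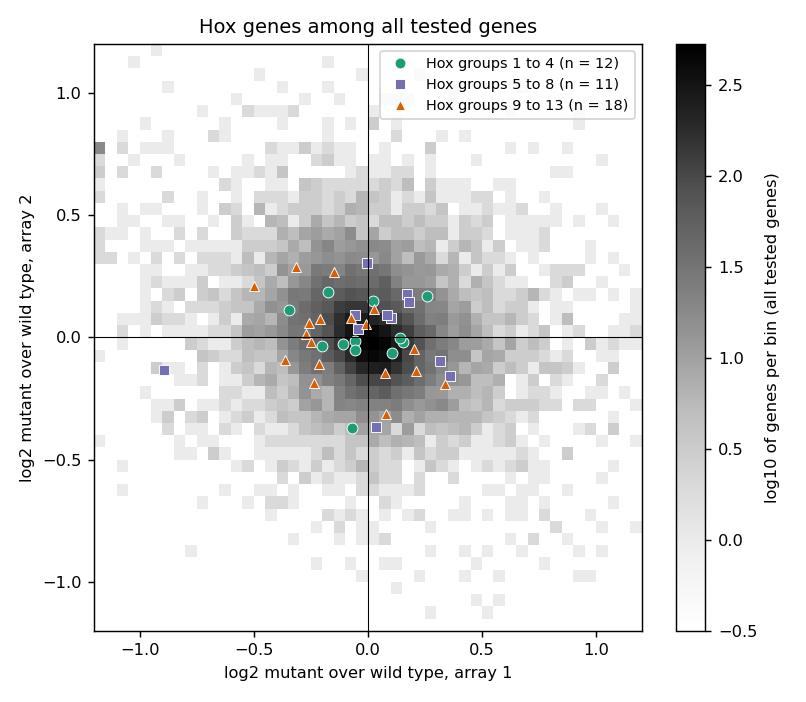
Log2 ratio of mutant over wild type on array 1 (horizontal axis) against array 2 (vertical axis), with Hox genes as coloured points over the density of all tested genes in grey (log10 of genes per bin). The Hox genes of all 3 classes lie in or near the dense centre, and hoxc6b lies far left of it.

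The anterior genes, paralog groups 1 to 4, pattern the hindbrain and the pharyngeal arches. Their 12 members had median log2 ratios of -0.057 on array 1 and -0.017 on array 2. Higher in mutants on both arrays were 2 genes (16.7%, against 21.2% of all genes). Lower on both were 5 (41.7%, against 20.2%), and 5 were split (41.7%, against 58.5%). The genes lower on both include hoxc3a by its brighter probe, while its dimmer probe was higher on both arrays. With median centring in place of loess, which keeps the dye difference that varies with intensity, 3 were lower on both, and the medians were 0.10 and -0.10. The shares of all genes given here are from loess, and none was computed under median centring. The 3 hindbrain markers measured, of 4 listed (egr2b, mafba and epha4a), had medians of -0.07 and 0.29, were all well above background, and summed to 1869 and 3064 in mutants, against 1908 and 2486 in wild types. Their part in these values was not tested.

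Group 1 has the earliest expressed genes, which set up the central hindbrain segments. The retinoic acid-induced gene hoxb1b had a normalised intensity of 1362 and 1279 in mutants and 1138 and 1137 in wild types. Both mutant signals lay above both wild-type signals. How many of all genes separate in this way was not computed, here or for the genes below. The mean log2 ratio of 0.22 ± 0.06 (SD, n = 2) was the highest of all 41 Hox genes (95% interval -0.04 to 0.47). With median centring hoxb1b was split, at 0.53 and -0.02. A further hoxb1b probe, left out for an outlier flag on array 1, read 0.43 and 0.018. The other early hindbrain gene, hoxb1a, which maintains the identity of the segment that makes facial motor neurons, read 0.02 and 0.15 on the log2 scale. Its 3 probes averaged 0.0078 to 0.09, and the dimmer ones were split, at 0.04 and -0.01, and at -0.05 and 0.06. For hoxa1a the log2 ratios were 0.15 and -0.02, split between the arrays. The remaining member, hoxc1a, had 342 and 359 in mutants against 394 and 368 in wild types. It was lower in mutants on both arrays, with a mean log2 ratio of -0.12 ± 0.12 (SD, n = 2).

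Both genes of group 2, which give the second pharyngeal arch its identity, were lower in mutants on both arrays without passing the test; with median centring in place of loess this held for 1 of 2. The normalised intensity of hoxa2b was 214 and 425 in mutants, against 225 and 550 in wild types. Most of its mean log2 ratio of -0.22 ± 0.22 (SD, n = 2, 95% interval -0.56 to 0.12) came from array 2, and the genotypes overlapped across arrays. The ratios of hoxb2a were -0.06 and -0.01.

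Group 3 acts in the caudal hindbrain. Its member hoxc3a had the set's 1 probe with an unadjusted p under 0.05, and that probe disagreed with the other. The dimmer probe read 455 and 385 in mutants against 374 and 326 in wild types, a mean log2 ratio of 0.26 ± 0.03 (SD, n = 2, 95% interval 0.016 to 0.51, limma adjusted p = 1.00). The brighter probe read 440 and 530 in mutants against 457 and 550 in wild types, a mean of -0.06 ± 0.0028. The gap of 0.317 between these probes was the widest for any Hox gene, and no direction is given for hoxc3a. The ratios of hoxd3a were -0.11 and -0.03, and those of hoxa3a -0.17 and 0.19.

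All 3 members of group 4, which mark the hindbrain next to the spinal cord, were split between the arrays. The gene hoxc4a read 288 and 445 in mutants against 365 and 411 in wild types, with a mean log2 ratio of -0.11 ± 0.32 (SD, n = 2) that is negative through array 1 alone. In mutants hoxd4a, whose hindbrain enhancer responds to retinoic acid, had 238 and 227, against 216 and 227 in wild types. Its mean log2 ratio was 0.07 ± 0.10. The ratios of hoxb4a were 0.10 and -0.07.

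The middle genes, paralog groups 5 to 8, are expressed from the anterior spinal cord and trunk mesoderm backwards. Their 11 members had median log2 ratios of 0.083 on array 1 and 0.077 on array 2. In every class the median had the same sign on both arrays, and in this class the 2 medians lay closest together. Higher in mutants on both arrays were 4 genes (36.4%, against 21.2% of all genes). Lower on both was 1 (9.1%, against 20.2%), and 6 were split (54.5%, against 58.5%). With median centring the medians of groups 5 to 8 were 0.23 and -0.05, and 3 genes were higher on both and 2 lower. No share of all genes was computed under that scaling. The 5 somite and muscle markers measured, of 7 listed, had medians of 0.46 and 0.41. Of these, 4 were higher in mutants on both arrays, against 21.2% of all genes, and all 5 were well above background. Their summed signal was 33797 and 35406 in mutants, against 23451 and 28376 in wild types. The 4 spinal cord and neuron markers measured had medians of 0.04 and 0.07. The part of either tissue in the middle Hox values was not tested.

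In group 5, both copies of hoxb5 were higher in mutants on both arrays, and so was hoxc5a; with median centring in place of loess, 2 of the group's 4 genes were. The normalised intensity of hoxb5a was 621 and 512 in mutants, against 552 and 453 in wild types. Its log2 ratios of 0.17 and 0.18 lay closer together than those of every other Hox gene except hoxc3a, and its mean was 0.17 ± 0.0058 (SD, n = 2, 95% interval -0.07 to 0.42). The copy hoxb5b, which acts in the forelimb field downstream of retinoic acid, had 1693 and 1430 in mutants and 1493 and 1293 in wild types. The mean log2 ratio was 0.16 ± 0.03 (SD, n = 2, 95% interval -0.08 to 0.41). Second probes gave means of 0.24 for hoxb5a and 0.19 for hoxb5b. That hoxb5b probe was split between the arrays, at 0.39 and -0.0087. The ratios of hoxc5a were 0.10 and 0.08, with a second probe at a mean of 0.12, and those of hoxa5a were -0.05 and 0.03.

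Group 6 held the lowest mean of the set. The gene hoxc6b had 127 and 178 in mutants against 236 and 195 in wild types. Both mutant signals lay below both wild-type signals, which was not counted over all genes, yet the log2 ratios were -0.89 and -0.13. Its mean of -0.51 ± 0.54 (SD, n = 2, 95% interval -1.16 to 0.13) was the 1 Hox mean beyond 0.5 in size (2.44% of the set, against 1.54% of all genes), and it was -0.77 in the deposited value table, which has no offset. Its duplicate hoxc6a read 0.36 and -0.16, with 3 probes averaging 0.04 to 0.10. The anterior trunk gene hoxb6a had 691 and 971 in mutants against 692 and 787 in wild types, and its mean log2 ratio of 0.15 ± 0.22 came from array 2. The ratios of hoxb6b were -0.06 and 0.09.

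In group 7 the measured member was hoxb7a, with 144 and 93.5 in mutants against 141 and 121 in wild types. Its mean log2 ratio was -0.17 ± 0.29 (SD, n = 2), from array 2, and -0.43 in the deposited value table. Group 8 acts in the trunk and spinal cord. The gene hoxb8b had 546 and 463 in mutants against 516 and 435 in wild types, a mean of 0.09 ± 0.0061 (SD, n = 2, 95% interval -0.16 to 0.33). With median centring it was split, at 0.29 and -0.05. A dimmer hoxb8b probe was split without that change, at 0.11 and -0.0099. Its duplicate hoxb8a, the probe with the highest intensity of the set, read 0.32 on array 1 and -0.10 on array 2.

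**Figure D3:**
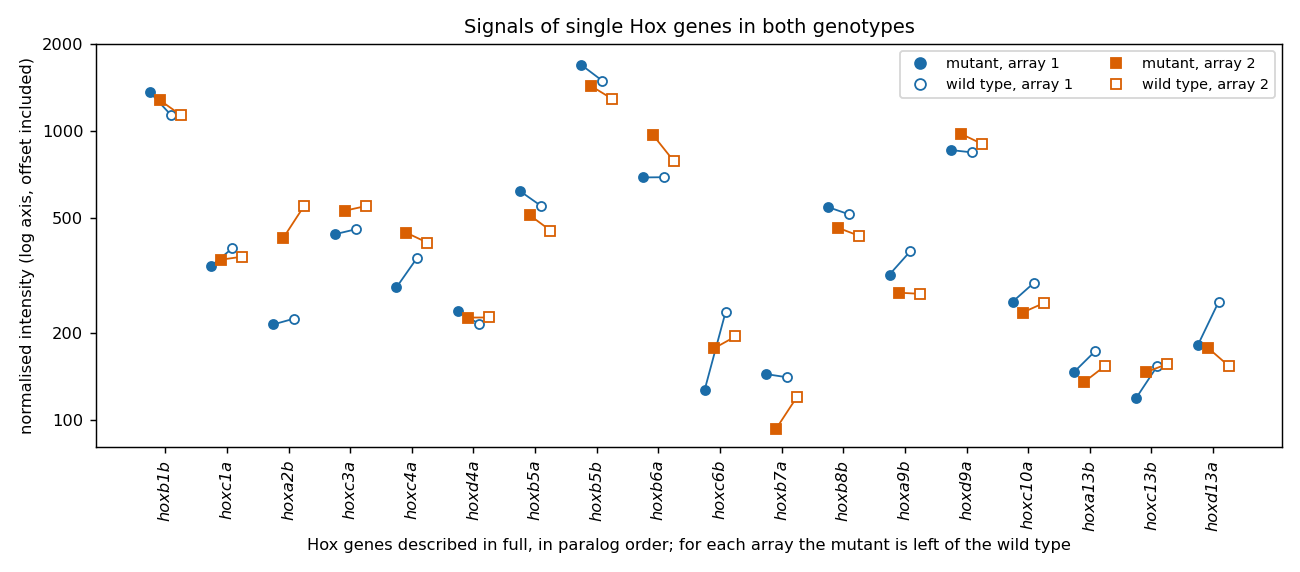
Normalised intensity (vertical log axis, offset included) of the 18 Hox genes described in full (horizontal axis), with filled symbols for mutants and open symbols for wild types; circles are array 1 and squares array 2. Lines join the genotypes of 1 array: they slope down towards wild type on both arrays for hoxb1b, hoxb5a, hoxb5b, hoxb8b and hoxd9a, and up for hoxc6b, hoxc10a, hoxa13b and hoxc13b among others.

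The posterior genes, paralog groups 9 to 13, are the last to be switched on and act in the posterior trunk, tail bud and fins. Their 18 members had median log2 ratios of -0.18 on array 1 and -0.0038 on array 2. Lower in mutants were 12 of 18 on array 1 and 9 of 18 on array 2, against 7617 and 8523 of all 16299 genes. On both arrays 1 gene was higher (5.6%, against 21.2% of all genes) and 4 were lower (22.2%, against 20.2%). The other 13 were split (72.2%, against 58.5%). With median centring the medians were -0.12 and -0.07, with 0 higher and 7 lower on both. Those counts have no share of all genes beside them, as none was computed under that scaling. The log2 ratio of red over green, averaged over the arrays, had a median of -0.065 for these genes, against 0.011 for all genes. This value is set by the difference between the arrays, so dye and replicate cannot be told apart in it. The 9 tail bud and presomitic mesoderm markers measured, of 11 listed, had medians of -0.20 on array 1 and 0.15 on array 2, with all 9 well above background. Their summed signal was 4608 and 5476 in mutants, against 5089 and 4934 in wild types. Of these markers 2 were higher and 2 lower in mutants on both arrays, against 21.2% and 20.2% of all genes. On array 1 their median was below 0, although tbxta, fgf8a and wnt8a read higher in mutants there. The part of the tail bud markers in the posterior Hox values was not tested.

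Group 9, active from the mid trunk backwards and in the pectoral fin, had medians of 0.03 and 0.01. The gene hoxa9b had 319 and 276 in mutants against 385 and 274 in wild types, a mean log2 ratio of -0.13 ± 0.20 (SD, n = 2) from array 1. Its 3 probes ran from -0.17 to 0.10 and did not share a sign. The 1 posterior gene higher in mutants on both arrays was hoxd9a, with 859 and 978 in mutants against 844 and 903 in wild types, a mean of 0.07 ± 0.06. With median centring it was split, at 0.28 and -0.07. The ratios of hoxb9a were 0.34 and -0.19, and those of hoxa9a -0.15 and 0.27. The 3 probes of hoxc9a averaged -0.07 to 0.07, and its brightest read 0.08 and -0.14.

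Groups 10 to 12 act in the posterior trunk and tail. The gene hoxc10a had 257 and 236 in mutants against 298 and 254 in wild types. It was lower in mutants on both arrays, at a mean log2 ratio of -0.16 ± 0.08 (SD, n = 2, 95% interval -0.42 to 0.10). The ratios of hoxa10b were 0.21 and -0.14, and those of hoxd10a 0.20 and -0.05. All 4 members of group 11 were split: hoxa11a at -0.0081 and 0.06, hoxa11b at -0.31 and 0.29, hoxc11a at -0.21 and 0.08, and hoxd11a at 0.08 and -0.31. In group 12, hoxc12b read -0.25 and -0.02, and hoxd12a -0.07 and 0.08.

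Group 13 specifies the end of the body axis and the distal fin. All 4 members were lower in mutants on array 1 (median -0.31), and 2 of 4 were lower on array 2 (median -0.02). Of all 16299 genes, 7617 were lower on array 1 and 8523 on array 2. The gene hoxa13b had 147 and 136 in mutants against 174 and 154 in wild types. Both mutant signals lay below both wild-type signals, which was not counted over all genes. Its mean log2 ratio of -0.21 ± 0.04 (SD, n = 2, 95% interval -0.46 to 0.04) came closest to the threshold among the brightest Hox probes. That mean was -0.33 in the deposited value table. The tail bud gene hoxc13b had 119 and 147 in mutants against 153 and 156 in wild types, again without overlap of the genotypes. Its mean was -0.23 ± 0.19 (SD, n = 2, 95% interval -0.55 to 0.10), and -0.42 in the deposited value table. Its duplicate hoxc13a read -0.26 and 0.06. For hoxd13a, a gene of the distal fin, mutants had 181 and 179 and wild types 257 and 154; the log2 ratios of -0.50 and 0.21 averaged -0.15 ± 0.50. The genotypes overlapped for hoxd13a.

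A shift between the ends of the axis was looked for as the difference between the class medians, groups 9 to 13 minus groups 1 to 4. It was -0.12 on array 1 and 0.013 on array 2, a mean of -0.05 ± 0.10 (SD, n = 2). An exact 2-sided sign-flip test gave p = 1, where 0.5 is the smallest p that 2 arrays allow. Across the 41 genes, which share dyes and arrays, paralog number and log2 ratio had a Pearson r of -0.26 and a Spearman rho of -0.32 on array 1, and -0.052 and -0.09 on array 2. For the mean log2 ratio they were -0.26 and -0.32. Without the 4 genes of group 13, left out after their values were seen, the values on array 1 were -0.07 and -0.11. Probes of higher paralog numbers tended to be dimmer: paralog number and mean log2 intensity had a Pearson r of -0.16 and a Spearman rho of -0.22. Mean log2 intensity and mean log2 ratio had 0.46 and 0.49 across the same genes. The part of intensity in the axis values was not tested.

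**Figure D4:**
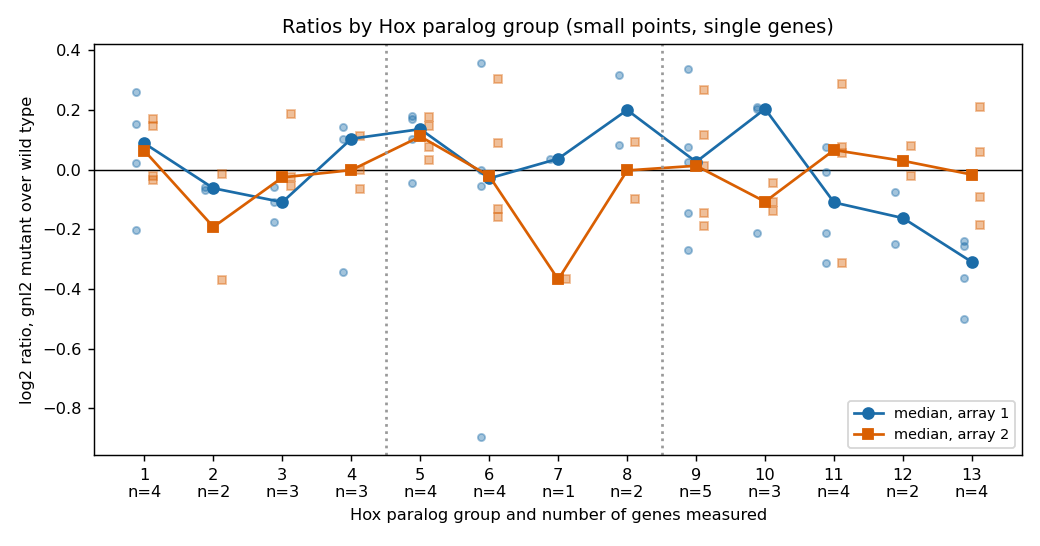
Log2 ratio of mutant over wild type (vertical axis) by Hox paralog group with the number of genes (horizontal axis); large joined symbols are group medians and small ones single genes, circles for array 1 and squares for array 2. Dotted lines part groups 1 to 4, 5 to 8 and 9 to 13; the arrays lie close in group 5 (0.14 and 0.11) and apart in group 13 (-0.31 and -0.02).

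Genes of 1 genomic cluster can share regulation, so the ratios were also ordered by cluster. The 4 genes of the hoxbb cluster (hoxb1b, hoxb5b, hoxb6b and hoxb8b) had medians of 0.13 and 0.12, with 3 higher in mutants on both arrays and 0 lower; with median centring in place of loess, 0 were higher on both. All 3 measured genes of the hoxcb cluster (hoxc6b, hoxc12b and hoxc13b) were lower on both arrays, with medians of -0.36 and -0.09, and so they were under each of the 4 other scalings. Of these scalings, Agilent's processed signals (-0.66 and -0.19) and the deposited table (-0.65 and -0.20) hold nearly the same ratios. They are not separate checks. These 3 probes were all below the median intensity of all genes, at mean intensities of 143 to 212 against 273. The hoxab cluster had 2 of 5 genes lower and 0 higher, with medians of -0.24 and -0.14. The hoxca cluster had 1 of 9 higher and 3 of 9 lower, the hoxba cluster 2 of 8 higher and 1 of 8 lower, and the hoxda cluster 1 of 7 each way. Among the hoxca genes lower on both, hoxc3a was so by its brighter probe alone. All 5 genes of the hoxaa cluster were split. With 3 to 9 genes per cluster these counts are descriptions of the arrays. With loess, 21.2% and 20.2% of all genes were higher and lower on both, and no such share was computed under median centring.

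**Figure D5:**
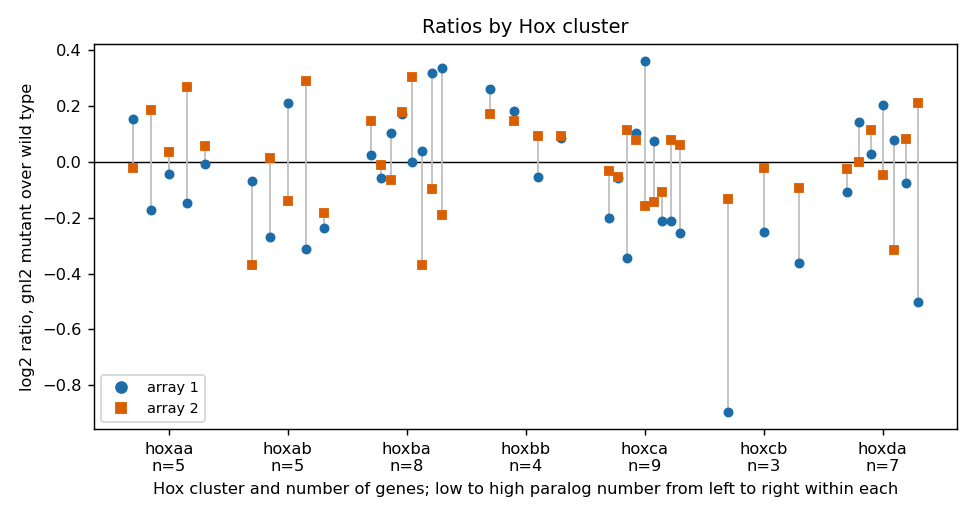
Log2 ratio of mutant over wild type (vertical axis) for the Hox genes of each genomic cluster (horizontal axis, number of genes below the name), with low to high paralog number from left to right; circles are array 1 and squares array 2, joined per gene. The hoxcb genes all lie below 0 on both arrays, and 3 of the 4 hoxbb genes lie above it on both, against 0 of 4 with median centring in place of loess.

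Duplicate copies and repeated probes were set side by side, each by its mean log2 ratio over both arrays. The a and b copies are different genes, so the gap between them does not measure how well a ratio repeats. Of 8 pairs of a and b copies, 5 had means of the same sign, and the gap ran from 0.010 for hoxb5 to 0.614 for hoxc6. Of 13 genes with several tested probes, 7 had all probe means above 0, 3 had all below and 3 had both signs (hoxc3a, hoxa9b and hoxc9a). Single probes among them could still be split between the arrays. The gaps between probes of a gene had a median of 0.071 and a highest value of 0.317. The probes of a gene share both extracts and arrays and are not replicates of the genotype. Across the 41 Hox genes the mean log2 intensity and the mean log2 ratio had a Pearson r of 0.46 and a Spearman rho of 0.49, against 0.012 and 0.04 over all genes: brighter Hox probes tended to read higher in mutants and dimmer ones lower.

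Another 8 probes describe Hox transcripts without carrying a Hox symbol by the naming rule, and none bears an unadjusted p under 0.05. Transcript contigs shared with members gave log2 ratios of -0.14 and -0.06 beside hoxd13a, -0.48 and 0.15 beside hoxd12a, -0.10 and -0.16 beside hoxa11b, and -0.06 and 0.04 beside hoxd4a. The hoxd13a contig probe was lower on both arrays where the hoxd13a probe was split. A clone probe that is a synonym of hoxa13b read -0.05 and 0.10, against -0.24 and -0.18 for the hoxa13b probe itself. One for hoxb5a read -0.16 and 0.07, a split where both hoxb5a probes were higher. A probe described as hoxb3a read -0.03 and 0.15, and the last of the 8 read 0.0066 and 0.17.

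The proteins that act with or upstream of Hox genes were read from 8 lists, and limma called 0 genes in each. An unadjusted p under 0.05 is given as passing before adjustment alone, and 3.28% of all probes had one. Of all genes, 21.2% were higher in mutants on both arrays, 20.2% lower and 58.5% split. The counts of these small lists are descriptions beside those shares and were not tested. Of the Hox cofactors, 11 of 14 listed were tested, with 2 higher in mutants on both arrays, 3 lower and 6 split. The cofactor meis1b had 1787 and 5503 in mutants against 2131 and 6689 in wild types, with log2 ratios of -0.25 and -0.28 and a mean of -0.27 ± 0.02 (SD, n = 2), and passed before adjustment alone. Its 2 probes ran from -0.27 to -0.21. Its relative meis3 was lower too, at -0.22 and -0.12, while meis1a was higher, at 0.22 and 0.10. With median centring in place of loess, these 3 genes were split between the arrays.

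Of the Cdx and ParaHox list, 3 of 6 genes were tested: cdx4, gsx1 and pdx1. Among them cdx4 alone is a Cdx gene. The tail regulator cdx4 read -0.20 and 0.19, a mean of -0.0073 with the genotypes overlapping. The gsx1 ratios were -0.01 and -0.03, and cdx1a was not well above background and not tested. The even-skipped genes next to Hox clusters read -0.09 and -0.05 for evx1, -0.07 and -0.05 for evx2, and -0.29 and 0.05 for eve1; with median centring evx1 was split. For gdf11, a secreted signal of the trunk-to-tail transition, the ratios were -0.26 and 0.12.

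Of the retinoic acid list, 11 of 22 genes were tested. In mutants 5 were higher on both arrays (45.5%, against 21.2% of all genes), 0 lower (against 20.2%) and 6 split. The carrier protein gene crabp2a had 1848 and 2193 in mutants against 1394 and 1485 in wild types. All mutant signals lay above the wild-type ones, which was not counted over all genes. The mean log2 ratio of 0.48 ± 0.11 (SD, n = 2, limma adjusted p = 1.00) passed before adjustment alone, and the 2 crabp2a probes gave 0.47 and 0.48. The degrading enzyme cyp26a1 had 2035 and 1585 in mutants against 1231 and 1214 in wild types, a mean of 0.55 ± 0.24. The synthesising enzyme aldh1a2 read 0.10 and -0.29, and rdh10b, which acts a step earlier, 0.08 and 0.16, or 0.36 and -0.04 with median centring.

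Among 17 of 18 hindbrain segmentation genes tested, 7 were higher in mutants on both arrays (41.2%, against 21.2% of all genes), 2 lower (11.8%, against 20.2%) and 8 split. The highest were irx1b with 0.28 and 0.35, irx7 with 0.43 and 0.15, and gbx2 with 0.23 and 0.26, of which irx1b passed before adjustment alone. The segment gene egr2b read 0.12 and 0.29, and the segment gene mafba -0.12 and 0.35. Of the tail bud and somite clock list 21 of 32 were tested, with a median of -0.15 on array 1 and -0.01 on array 2. Of these, 3 were higher (14.3%, against 21.2%), 8 lower (38.1%, against 20.2%) and 10 split. Some of the 8 lay near 0, such as mespba at -0.02 and -0.06. Second probes of fn1b and mespaa had means above 0 (0.15 and 0.05), and that of tbx16 below 0 (-0.16). The tail bud list members tbx16 and tcf15 read -0.49 and -0.09, and -0.15 and -0.20, with tcf15 split under median centring. The notochord and tail gene tbxta read 0.04 and 0.15. The neural gene sox2 of the same list read -0.86 and -0.36, and both it and cyp26a1 passed before adjustment alone.

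Of the Polycomb and trithorax regulators, which hold Hox genes off or on, 11 of 29 were tested, with 1 higher, 3 lower and 7 split. The Polycomb gene cbx2 had 837 and 1075 in mutants against 1108 and 1228 in wild types. Its mean log2 ratio was -0.30 ± 0.15 (SD, n = 2), and it passed before adjustment alone. The ratios of cbx8a were 0.10 and 0.19, and those of men1 -0.14 and -0.05; both genes were split with median centring. In the appendage and tail outgrowth list, 10 of 16 were tested, with 1 higher, 3 lower and 6 split; msx1a read 0.11 and 0.09, and msx2b -0.21 and -0.08, and both were split with median centring.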

How the data were processed

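Per the file headers, each spot's intensity is its mean over pixels, with the median of its surround as background, as read by Agilent Feature Extraction, and the log10 ratio column is red (Cy5) over green (Cy3). The same software is named in the submitters' processing notes. The deposited value table holds the same log10 ratios, unturned for the dye swap, and differed from the scanner files by at most 0.00499. The flag columns for background, saturation and outliers are the authors' scanner output, per the file headers.

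From these, signals were corrected with normexp (offset 50) and normalised by loess (span 0.3) in limma 3.58.1 under R 4.3.3. For the printed intensities, the average log2 intensities of the 2 arrays were also quantile-normalised to each other, which leaves the log2 ratios unchanged. Comparisons of signals across arrays, and the choice of the brightest probe, rest on that step. Of 21495 gene probes, 749 with an outlier flag and a further 1462 not well above background on both arrays in either genotype were left out. Array 2 was turned so that log2 ratios give mutant over wild type. Probes were tested with lmFit and eBayes, 2-sided, with Benjamini-Hochberg adjustment over 19284 probes, 1 residual degree of freedom and 3.49 in total; the code was tested on simulated data. The SD is over 2 arrays.

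A gene is shown by its brightest probe. Full statistics go, in each class, to up to 4 genes of 1 direction on both arrays and up to 2 split ones, ranked by size, and to genes with an unadjusted p under 0.05. From each other list, up to 3 genes of 1 direction on both arrays were named, ranked by their smaller absolute log2 ratio. A fixed set, such as gnl2, cdx4 and aldh1a2, was to be named whatever its values. Names follow the file or the RefSeq table of assembly GRCz12tu (7323 probes by accession, 598 by symbol, 2352 by synonym), used for names only. That table lists 49 Hox symbols, of which 41 have a probe by the rule. Not analysed as members were hoxa4a, hoxa13a, hoxb3a, hoxb10a, hoxb13a, hoxc8a, hoxc11b and hoxc12a. A probe described as hoxb3a was read outside the rule. The members and lists were chosen with earlier results of these data known. Alternatives were other background corrections, normalisations, filters, probe rules, class boundaries, a trend in eBayes and each array alone. The number of arrays limits the precision.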

Additional observations from a re-analysis of the deposited data

How the results depend on the processing

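The count of Hox probes called was 0 under all 9 settings tried, and median centring in place of loess was the 1 setting that called any of all probes (38); unadjusted p under 0.05 held for 0 to 2 Hox probes. For groups 5 to 8 (0.09) the median was 0.107 with Agilent's processed signals, 0.103 with offset 0, 0.122 with median centring, 0.104 in the deposited table and 0.0757 as a mean over all probes of a gene. For groups 1 to 4 (-0.014) it was 0.018 as a mean over all probes and 0.0077 with median centring, so this median has no stable sign. On each array alone the medians ran from -0.045 to -0.0013 for all Hox genes, -0.057 to -0.017 for groups 1 to 4, 0.077 to 0.083 for groups 5 to 8 and -0.18 to -0.0038 for groups 9 to 13. The posterior median (-0.051) ran from -0.029 as a mean over all probes to -0.078 in the deposited table with both arrays. The posterior minus anterior difference ran from -0.12 to 0.013 on single arrays. Taken from each gene's mean log2 ratio over both arrays it was -0.037, where the mean of the 2 array differences was -0.05. From mean ratios it was also -0.065 with processed signals and in the deposited table, -0.080 with median centring, and -0.11 for groups 10 to 13 minus 1 to 5. Higher on both arrays were 5 to 9 Hox genes and lower on both 9 to 12. Shares of all genes were computed for the main setting alone. Of single genes, hoxc3a changed sign to 0.10 as a mean over its probes. With either array alone, hoxc4a ran from -0.34 to 0.11, hoxd4a from -0.0013 to 0.14, hoxb6a from -0.0024 to 0.30, hoxb7a from -0.37 to 0.037, hoxa9b from -0.27 to 0.01 and hoxd13a from -0.50 to 0.21. The dim gene hoxc6b was -0.51 with offset 50 and -0.70 with offset 0, the offset's pull towards 0, and -0.77 with processed signals. Likewise hoxb7a was -0.17, -0.38 and -0.43, hoxc13b -0.23, -0.35 and -0.42, and hoxa13b -0.21, -0.33 and -0.33. Of 20 named genes of the other lists, median centring split 11 between the arrays (cbx8a, evx1, gsx1, meis1a, meis1b, meis3, men1, msx1a, msx2b, rdh10b and tcf15). All 20 had 1 direction on both arrays with loess, so a change of scaling could only add splits. The cause of the other moves was not tested.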
